A study of Rattus norvegicus with 6 samples.

Results

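The genes described here are the ligands and receptors of the VEGF and PDGF systems, followed through the cell classes of rat pancreas. They are 10 of the 32883 genes in the count tables, chosen by name and not by level, and they comprise 6 ligands (Vegfa, Vegfb, Vegfc, Pdgfa, Pdgfb and Pdgfc) and 4 receptors (Kdr, Flt1, Pdgfra and Pdgfrb). Single-cell RNA sequencing had been carried out on islet-directed preparations from 6 male Wistar rats in 3 groups of 2. The young rats were 2 months old, and the old and HFHF-old rats were 20 months old after 18 months on a normal diet or a high-fat, high-fructose (HFHF) diet, respectively. Each library comes from the pancreas of 1 rat, so the rat is the replicate. The pancreas was digested with collagenase through the bile duct and enriched on a density gradient, and what this did to the yield of each cell type was not tested. Values are CPM, that is, the UMIs (unique molecular identifiers, which count captured mRNA molecules) of a gene in all cells of a class of a rat, per 1000000 UMIs of those cells. Because only the 3′ ends of transcripts were counted, levels are compared between classes and rats and not between genes. Means are over rats with at least 10 cells of the class and are given ± SD.

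VEGF ligands are secreted proteins that act mainly on endothelial cells, where the tyrosine kinase receptor encoded by Kdr (VEGFR2) carries most of the mitogenic signal and the receptor encoded by Flt1 (VEGFR1) binds ligand tightly and in part serves as a decoy. PDGF ligands act mainly on mesenchymal cells, where PDGF-A and PDGF-C bind chiefly the receptor encoded by Pdgfra and PDGF-B binds both receptors. In the pancreas, islet endocrine cells are known to secrete VEGF-A, which maintains the dense fenestrated capillaries of the islet, and endothelial PDGF-B is known to recruit pericytes carrying the Pdgfrb product.

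The 6 libraries held 78024 barcodes, of which 75201 cells were kept, with a median of 2537 to 9392 UMIs per cell and 77387928 to 166875258 UMIs per library. Named classes covered 52434 cells (69.7%), and 22419 cells were in clusters left without a class. Libraries stood apart in several ways. Old 2 held 9 clusters found in no other rat (1858 cells, 11.3% of that library). Among them, cluster 21 (274 cells) was led by genes such as Prl7b1 and Prl2a1 and cluster 30 (156 cells) by Ctsj and Ctsq. The rest were led by other genes, such as Postn, Actg2 or Prap1. Among the rest, cluster 56 shared Cdkn1c and cluster 50 shared LOC103694857 with the leading genes of cluster 21. Whether the rest share a source with clusters 21 and 30 was not tested. Prl7b1, Prl2a1, Ctsj and Ctsq are known as genes of the placenta and decidua, while the rat is labelled male. The source of clusters 21 and 30 is therefore not accounted for by the labels. None of the 9 clusters carries a class. The 4 genes had 44 UMIs in the 8 tested classes of old 2, at 0.180 to 3.16 CPM summed, and 0 in the other 5 rats. Whether other cells of the same source lie within the named classes of old 2 was not tested, and old 2 is 1 of the 2 rats of the old group in every comparison. In young 2, 22.3% of the library was a cluster of 2292 cells led by hormone genes of several islet cell types. Clusters with at least 99% of their cells from 1 rat made up 32.3% of HFHF-old 1 (6 clusters, 3873 cells) and 55.6% of HFHF-old 2 (2 NK clusters, 6515 cells). NK cells numbered 7985 in HFHF-old 2 against 634 to 1651 in the other rats. HFHF-old 2 held 3 alpha, 3 beta, 1 ductal and 63 macrophage cells, so values for the HFHF-old group in islet and ductal cells rest on HFHF-old 1. A total of 636 barcodes occurred in more than 1 library. The share of free RNA was estimated as the hormone and digestive enzyme share of lymphocyte UMIs over that of the whole library. It came to 3.80% to 9.85% in the 4 young and old rats, 24.6% in HFHF-old 1 and 32.0% in HFHF-old 2. HFHF-old 2 was mostly lymphocytes (7985 NK and 1376 T cells of 11716), so the ratio sets them largely against themselves. Their hormone and enzyme share was the lowest, at 0.0775% against 0.491% to 2.71%. The 32.0% therefore does not show that HFHF-old 2 had the most free RNA. None of these features was tested as a cause of the differences given below, and the values without each rat are given where they change a call.

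The classes were named from lists that hold the genes given here, so these levels describe the classes and do not test the names. Endothelial cells carried Cdh5 at 456 to 870 CPM and Emcn at 917 to 1442 CPM. Fibroblasts carried Dcn at 8708 to 13225 CPM and Col1a1 at 390 to 7963 CPM. Macrophages carried C1qa at 1907 to 4930 CPM, and smooth muscle and pericyte cells carried Myh11 at 5851 to 10036 CPM. Mafa in beta cells was 1.17 to 10.9 CPM and Irx2 in alpha cells 6.84 to 70.3 CPM. Ductal cells carried Cftr at 1056 to 3348 CPM, but Krt19 reached 10.9 to 32.8 CPM. Smooth muscle and pericyte cells could not be separated, and Rgs5, a pericyte gene, ranged there from 43.0 CPM in young 1 to 955 CPM in old 1. The cells of this class numbered 217, 108, 17 and 78 in young 1, young 2, old 1 and old 2, and 6 and 2 in the HFHF-old rats, which gave no value.

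**Figure D1:**
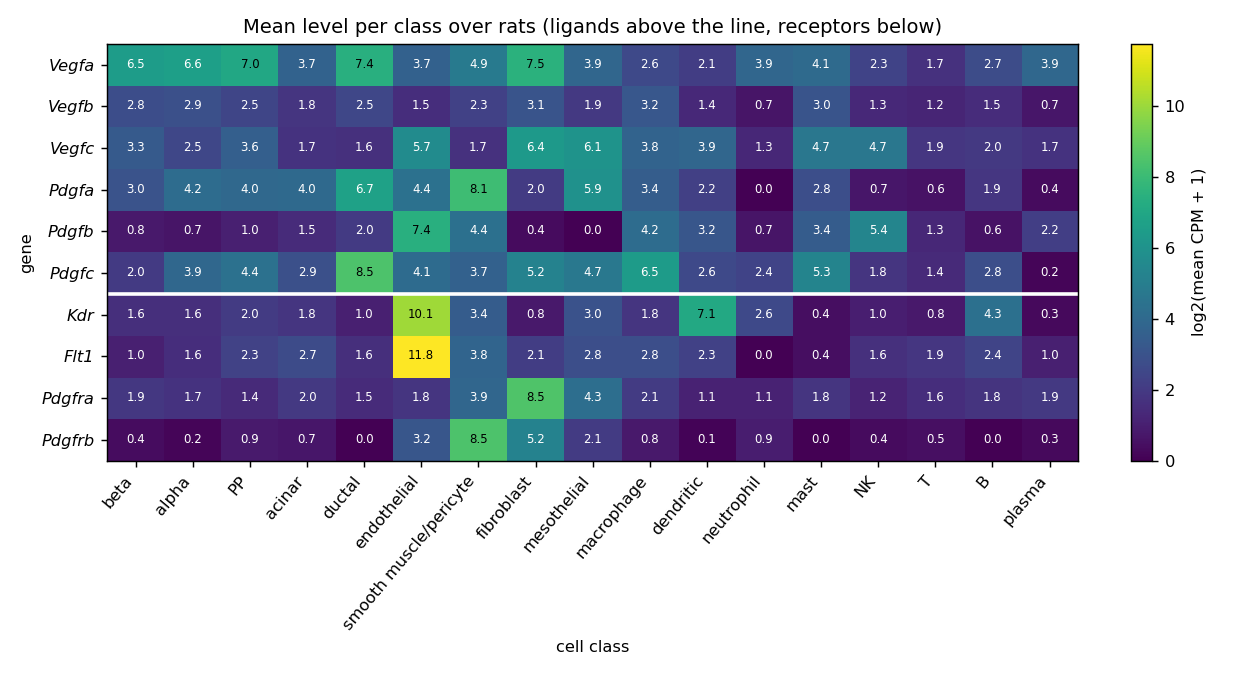
Mean level of each gene over rats (colour, log2(mean CPM + 1)) in the cell classes on the horizontal axis, with ligands above the line and receptors below. Among the classes shown, Kdr and Flt1 were highest in endothelial cells, Pdgfra in fibroblasts and Pdgfrb in smooth muscle and pericyte cells, whereas Vegfa was spread over fibroblast, ductal and islet classes.

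Vegfa (ENSRNOG00000019598), the main angiogenic ligand, was held by fibroblasts, ductal cells and islet endocrine cells. In fibroblasts it was 179, 191, 178, 119, 200 and 210 CPM in young 1, young 2, old 1, old 2, HFHF-old 1 and HFHF-old 2, respectively, with a mean of 179 ± 32.0 CPM (SD, n = 6). In ductal cells it was 164, 210, 217, 114 and 149 CPM in the 5 rats with enough cells, a mean of 171 ± 43.2 CPM. The fibroblast and ductal levels differed by 0.04 ± 0.27 on the log2(CPM + 1) scale, with fibroblasts higher in 3 of 5 rats (two-sided exact permutation test, p = 0.75), so the order of these 2 classes was not resolved. Among islet cells, Vegfa reached 242 and 191 CPM in the delta cells of young 1 and young 2, the 2 rats with at least 10 such cells. The PP cells held 188, 129, 148, 64.5 and 123 CPM (mean 131 ± 44.6, n = 5), and the alpha cells 131, 95.2, 110, 65.9 and 88.6 CPM (mean 98.1 ± 24.2, n = 5). The beta cells held 94.9, 49.2, 94.0, 61.8 and 146 CPM (mean 89.3 ± 37.7, n = 5). PP cells were above alpha cells in 4 of 5 rats, a mean difference of 0.36 ± 0.22, and alpha cells were above beta cells in 4 of 5 rats by 0.20 ± 0.61, less than the spread between rats. Acinar cells, which secrete digestive enzymes, held 10.7, 11.1, 12.4, 12.5, 11.9 and 14.2 CPM, below every named islet class in the 5 rats with islet values. This order holds for the named acinar class only, since cluster 28, with 13 of 15 acinar markers raised but left without a class, held Vegfa at 112 to 443 CPM in 202 cells of low depth.

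By the share of all Vegfa UMIs in a library, fibroblasts supplied 16.7% to 79.7% and beta cells 0.283% to 34.7%. These shares follow how many cells of each class a preparation yielded, so they describe the libraries and not the tissue.

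Vegfb (ENSRNOG00000021156), a ligand of the Flt1 product, was sparse in every class. Macrophages held 7.97, 14.5, 7.71, 2.29, 9.48 and 6.86 CPM (mean 8.14 ± 3.96, n = 6) and fibroblasts 6.60, 11.4, 9.42, 2.04, 6.89 and 7.82 CPM (mean 7.36 ± 3.16, n = 6). Macrophages were higher in 4 of 6 rats by 0.11 ± 0.27 (exact permutation test, p = 0.375), and none of the 6 neighbouring pairs of classes in the order of Vegfb levels differed by more than 1 SD. The lowest value of Vegfb was that of old 2 in macrophages, fibroblasts, alpha, beta and PP cells. The highest single values were 22.0 and 19.8 CPM in the delta cells of young 1 and young 2, from 7 and 3 UMIs.

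Vegfc (ENSRNOG00000011416), a ligand known for driving lymphatic vessel growth, was highest on average in fibroblasts, mesothelial cells and endothelial cells. Fibroblasts held 109, 62.1, 91.0, 77.9, 68.2 and 83.0 CPM (mean 81.9 ± 16.8, n = 6). Mesothelial cells, which line the organ surface, held 85.8, 79.1, 41.3 and 55.1 CPM in young 1, old 1, old 2 and HFHF-old 1 (mean 65.3 ± 20.7). Endothelial cells held 37.0, 48.9, 60.5, 38.1, 32.0 and 80.1 CPM (mean 49.4 ± 18.2, n = 6). Fibroblasts were above mesothelial cells in 4 of 4 rats by 0.44 ± 0.31, and mesothelial above endothelial cells in 4 of 4 by 0.61 ± 0.47. Natural killer cells came next at 14.9, 15.8, 19.4, 26.9, 36.5 and 32.6 CPM, below endothelial cells in 5 of 6 rats. They were above T cells, with 0 to 5.02 CPM, in every rat, and HFHF-old 2, with its 7985 NK cells, had 68.7% of its Vegfc UMIs in them. Among islet cells, Vegfc was 5.87 to 17.2 CPM in PP cells, 2.59 to 23.5 CPM in beta cells and 3.05 to 7.44 CPM in alpha cells.

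**Figure D2:**
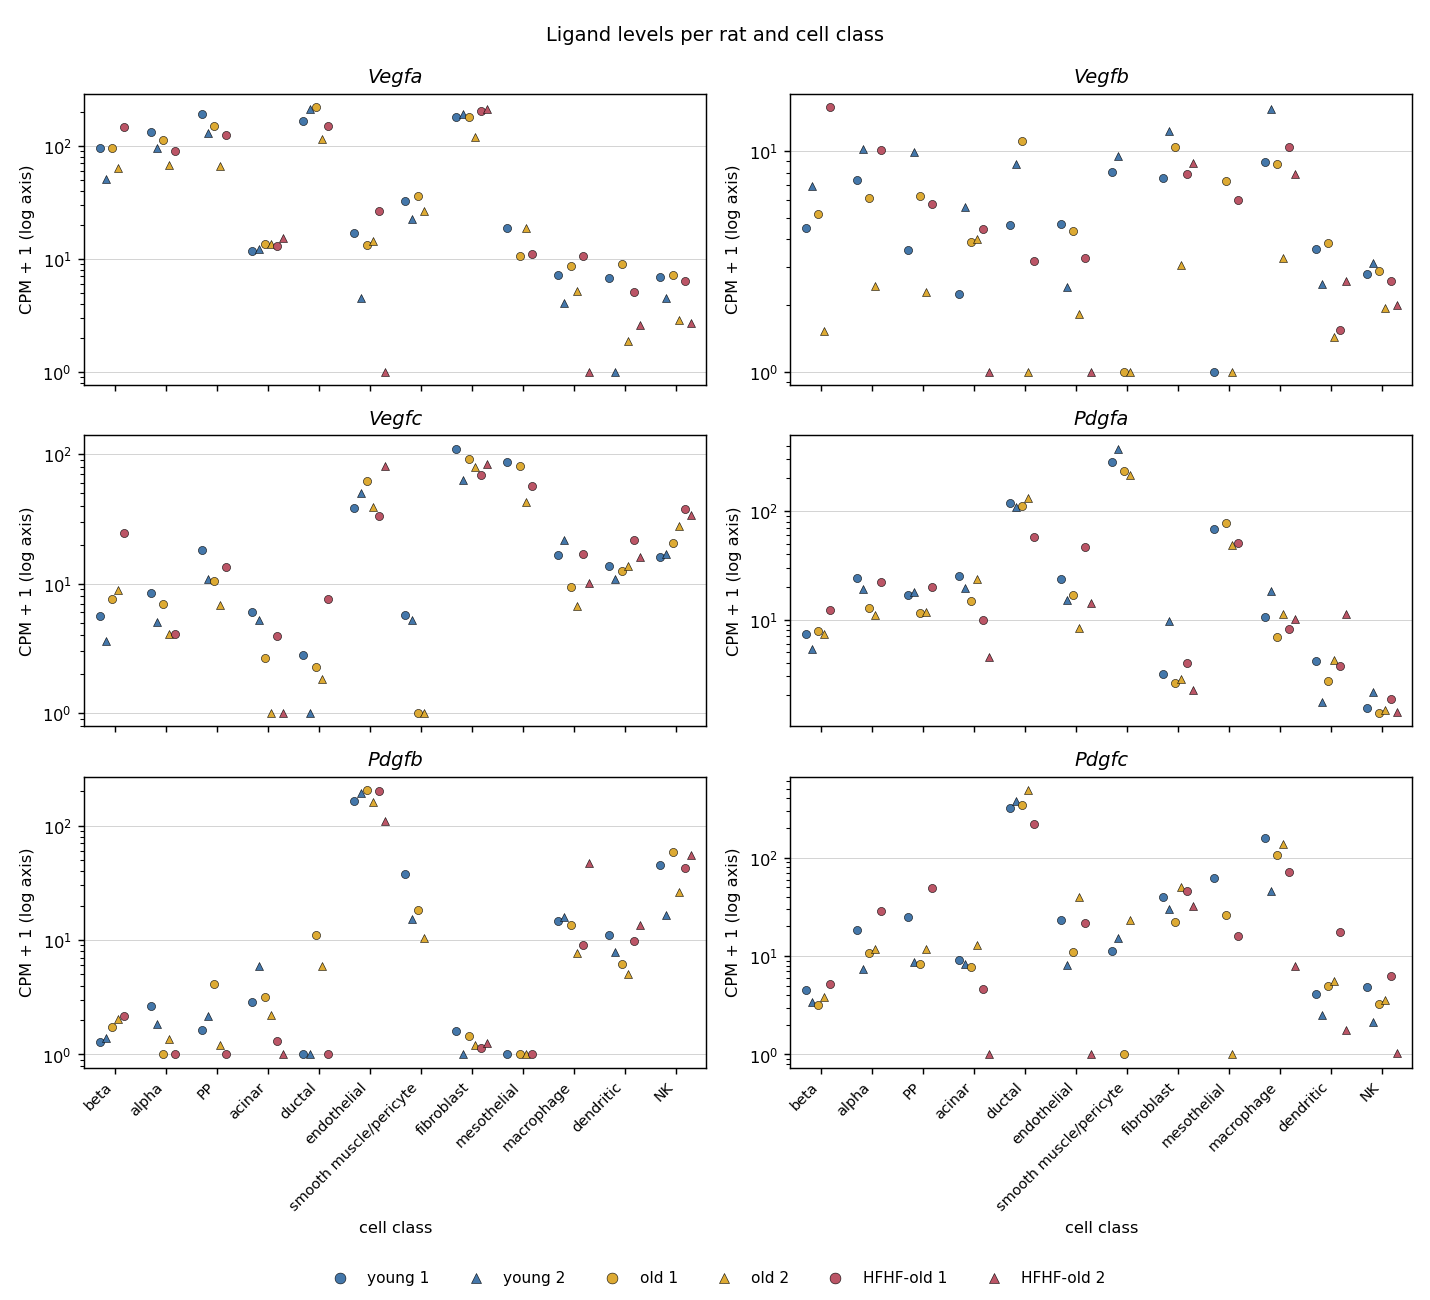
Level of the 6 ligands in every rat (points, CPM + 1 on a log axis) by cell class, with colour for the group and marker shape for the rat. Pdgfb stood at 109 to 204 CPM in endothelial cells, Pdgfc at 217 to 488 CPM in ductal cells and Pdgfa at 215 to 376 CPM in smooth muscle and pericyte cells, while the 3 groups mixed within most classes.

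Among named classes, the VEGF receptors were highest in endothelial cells. Kdr (ENSRNOG00000046829) was 1026, 1328, 1211, 857, 1356 and 783 CPM in endothelial cells (mean 1094 ± 243, n = 6), and Flt1 (ENSRNOG00000000940) was 2798, 3341, 3874, 2488, 4920 and 3273 CPM (mean 3449 ± 864, n = 6). The groups overlapped for both genes, with the highest value in HFHF-old 1. Flt1 was 12.8 ± 11.9 CPM in the next class, smooth muscle and pericyte cells, where it ranged from 0 to 26.6 CPM, and endothelial cells were higher in 4 of 4 rats by 8.61 ± 2.32 on the log2(CPM + 1) scale. Kdr had another holder, the dendritic cells, which present antigen, at 215, 35.6, 223, 173, 108 and 56.5 CPM (mean 135 ± 80.3, n = 6). Endothelial cells were above them in 6 of 6 rats by 3.26 ± 1.16. The exact permutation test gave an unadjusted p = 0.03125, the smallest that 6 rats allow, and an adjusted p = 0.156, for classes picked by level. The dendritic cells held Flt1 at 0.571 to 5.29 CPM, and the summed level of the endothelial marker list there was 184 to 296 CPM against 10622 to 14356 CPM in endothelial cells.

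Islet and acinar cells held little of either receptor. Flt1 was 0.147 to 3.05 CPM in beta cells and 1.44 to 3.05 CPM in alpha cells, and Kdr was 0.246 to 4.58 CPM in beta cells and 0 to 7.52 CPM in acinar cells. Flt1 in acinar cells was 5.05, 16.5, 2.63, 0, 1.15 and 7.12 CPM, and the summed endothelial marker list in those cells was 3.56 to 199 CPM, highest in young 2 as Flt1 was. The part of free RNA in these low values was not tested. Of all Flt1 UMIs in a library, 72.3% to 86.1% were in endothelial cells. The corresponding share of Kdr was 29.5% to 58.6%, because 35.4% to 62.4% of its UMIs were in clusters without a class and 1.47% to 23.0% in dendritic cells.

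The promoters of the 2 receptor genes that share the endothelial class are shown to set their bases side by side. They span 250 bases before to 50 after the start of the gene in the RefSeq table of build GRCr8, at chr14:32571813-32572112 (+) for Kdr and chr12:12333180-12333479 (+) for Flt1, written 5′ to 3′ with GGAA or TTCC, the core letters bound by ETS factors, in capitals.
Kdr: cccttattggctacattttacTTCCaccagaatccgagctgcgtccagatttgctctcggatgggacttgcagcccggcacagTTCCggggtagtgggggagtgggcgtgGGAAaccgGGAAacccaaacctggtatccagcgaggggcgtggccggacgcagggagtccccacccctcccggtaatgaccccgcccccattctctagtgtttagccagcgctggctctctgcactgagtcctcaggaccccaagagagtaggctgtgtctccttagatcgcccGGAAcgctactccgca
Flt1: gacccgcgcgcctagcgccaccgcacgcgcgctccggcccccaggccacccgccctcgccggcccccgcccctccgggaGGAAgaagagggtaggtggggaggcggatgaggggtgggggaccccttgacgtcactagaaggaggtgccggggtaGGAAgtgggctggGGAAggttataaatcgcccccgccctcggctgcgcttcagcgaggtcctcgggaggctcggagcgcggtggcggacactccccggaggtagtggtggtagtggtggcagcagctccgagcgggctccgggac
The letters GGAA occurred, on either strand, 5 times for Kdr and 3 times for Flt1, and in 95.8% of the 33469 promoters of the table. The longer CCGGAA, which contains GGAA, occurred 2 times for Kdr, 0 times for Flt1 and in 14.95% of promoters. GGGCGG, the letters of a GC box, occurred 1 time for Kdr, 3 times for Flt1 and in 33.1% of promoters. ACGTG, the core of a hypoxia response element, occurred in 19.3% of promoters and in none of the 10 promoter entries of the 9 genes that matched, Vegfa having 2 entries. Pdgfrb had no entry, and bases outside these windows were not searched.

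**Figure D3:**
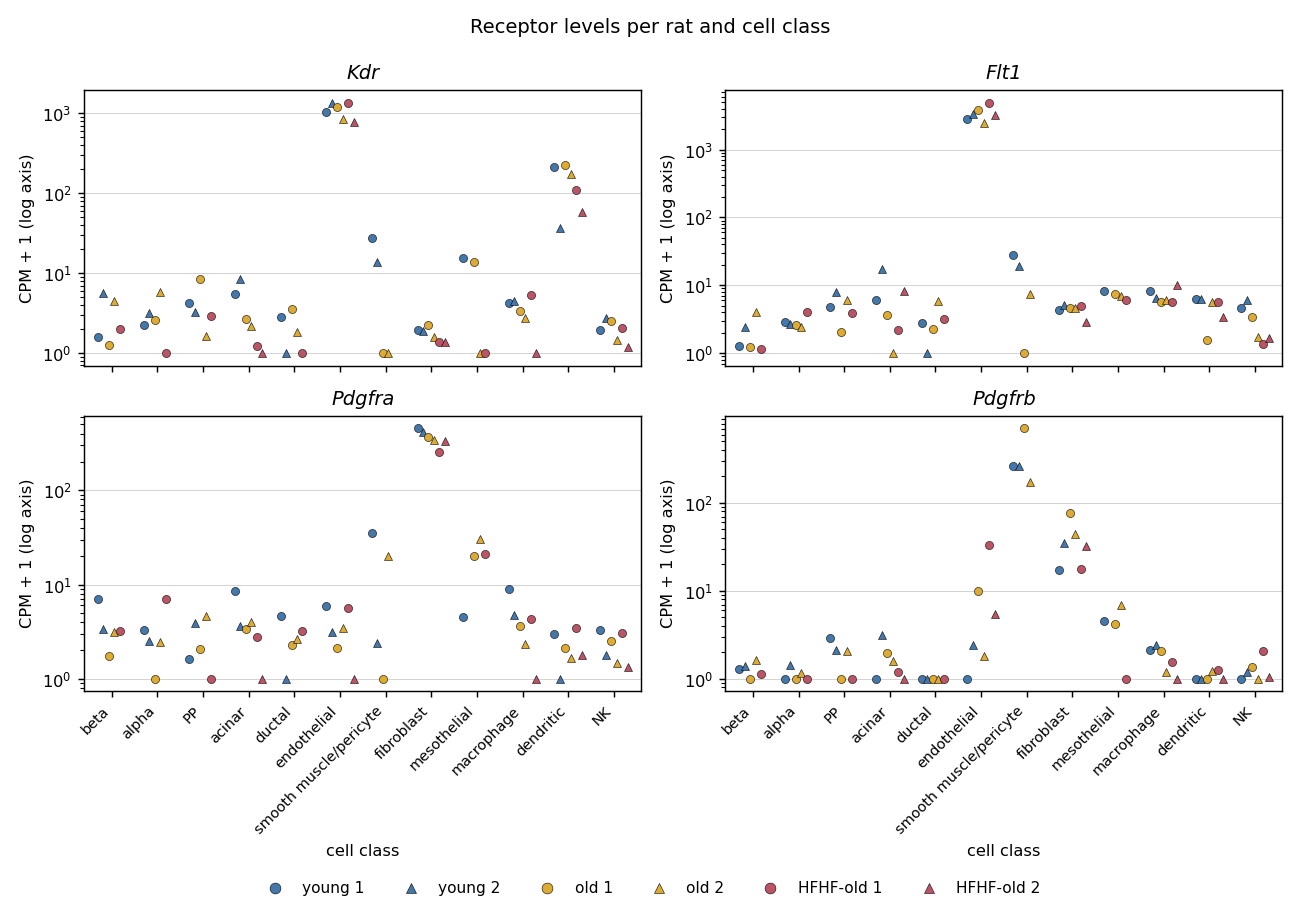
Level of the 4 receptors in every rat (points, CPM + 1 on a log axis) by cell class, with colour for the group and marker shape for the rat. Flt1 stood at 2488 to 4920 CPM in endothelial cells against 26.6 CPM at most in the other classes shown, whereas Kdr also reached 35.6 to 223 CPM in dendritic cells.

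The class with the highest level differed between the PDGF ligands. Pdgfa (ENSRNOG00000001312) was 285, 376, 234 and 215 CPM in the smooth muscle and pericyte cells of young 1, young 2, old 1 and old 2 (mean 278 ± 71.8), with both young rats above both old rats, as for 17.2% of the 6590 genes tested in that class. Ductal cells held 117, 109, 111, 131 and 56.9 CPM (mean 105 ± 28.1, n = 5), and smooth muscle and pericyte cells were higher in 4 of 4 rats by 1.21 ± 0.45. Mesothelial cells held 60.3 ± 13.9 CPM (n = 4). Islet and acinar cells held less, with alpha cells at 10.1 to 22.9 CPM, beta cells at 4.38 to 11.2 CPM and acinar cells at 24.0, 18.6, 13.9, 22.6, 8.91 and 3.56 CPM, where the 2 HFHF-old rats were the lowest. Of all 8253 genes tested in acinar cells, 45.2% were likewise lower without overlap in the HFHF-old than in the old rats, so the order of Pdgfa is that of many acinar genes. Of the 508 acinar cells of HFHF-old 1, 502 were in a cluster with 99.2% of its cells from that rat, HFHF-old 2 had 59 acinar cells, and a cluster of 240 acinar cells was 99.2% from young 2.

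Pdgfb (ENSRNOG00000017197) was highest in endothelial cells, at 164, 192, 204, 161, 199 and 109 CPM (mean 172 ± 35.5, n = 6). The next class was natural killer cells at 44.7, 15.6, 58.0, 25.5, 41.9 and 54.8 CPM (mean 40.1 ± 16.6, n = 6). These were below endothelial cells in 6 of 6 rats by 2.17 ± 0.86 (exact permutation test, unadjusted p = 0.03125, adjusted p = 0.156). Because NK cells were many, they held 10.0% to 91.2% of the Pdgfb UMIs of a library, with the top share in HFHF-old 2. Macrophages held 13.8, 14.8, 12.6, 6.78 and 7.97 CPM in the first 5 rats and 45.7 CPM in HFHF-old 2, where the value rests on 20 UMIs.

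Pdgfc (ENSRNOG00000010695) was highest, among named classes, in ductal cells at 322, 373, 346, 488 and 217 CPM (mean 349 ± 97.5, n = 5). Macrophages followed at 158, 44.6, 105, 136, 70.6 and 6.86 CPM (mean 86.9 ± 57.0, n = 6), the last from 3 UMIs, and ductal cells were higher in 5 of 5 rats by 1.84 ± 0.73 (exact permutation test, p = 0.0625, the smallest that 5 rats allow). That order depends on the clusters left without a class, of which clusters 84, 76 and 99 held Pdgfc at 466, 417 and 472 CPM on average. With clusters of mixed leading genes kept in the class they resemble, cluster 76 alone joined a class. Macrophages of HFHF-old 1 then held 269 CPM, above its ductal cells, and ductal cells were higher in 4 of 5 rats by 1.45 ± 1.22. Clusters 84 and 99 stayed without a class, so their part in the order was not tested. Fibroblasts held 35.9 ± 10.5 CPM (n = 6), and macrophages were above them in 5 of 6 rats. Among islet cells, PP cells held 7.35 to 48.8 CPM and alpha cells 6.42 to 27.5 CPM, each highest in HFHF-old 1. Delta cells held 6.27 and 13.2 CPM in the 2 young rats, and beta cells 2.22 to 4.26 CPM. Acinar cells held 0 to 11.9 CPM.

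The PDGF receptors divided the stroma. Pdgfra (ENSRNOG00000002244) was 452, 412, 370, 343, 251 and 330 CPM in fibroblasts (mean 360 ± 69.7, n = 6), with the 2 young rats highest and the 2 HFHF-old rats lowest. Of all 13057 genes tested in fibroblasts, 18.3% were lower without overlap in the old than in the young rats and 18.9% in the HFHF-old than in the old. Mesothelial cells came next at 18.0 ± 10.7 CPM (n = 4), lower in 4 of 4 rats by 4.48 ± 1.47. Fibroblasts held 57.9% to 83.6% of the Pdgfra UMIs of a library.

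Pdgfrb (ENSRNOG00000018461) was 263, 265, 703 and 174 CPM in the smooth muscle and pericyte cells of young 1, young 2, old 1 and old 2 (mean 351 ± 239). The value of old 1 comes from 17 cells and stands with the high Rgs5 of that rat. Fibroblasts held 16.5, 33.8, 76.8, 43.8, 16.8 and 31.8 CPM (mean 36.6 ± 22.3, n = 6), lower than smooth muscle and pericyte cells in 4 of 4 rats by 3.00 ± 0.81, and both old rats were above the other 4. Of the genes tested in fibroblasts, 16.9% were higher without overlap for old against young. In endothelial cells Pdgfrb was 0 to 8.97 CPM in 5 rats and 32.0 CPM in HFHF-old 1. Islet, acinar, ductal and immune cells with at least 10 cells in 3 rats held at most 4.47 CPM.

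For 8 of the 10 genes the leading named class was above the next in every rat that held both, which for Pdgfc no longer held with the clusters of mixed leading genes kept. The exact permutation test, adjusted over the 10 genes by the Benjamini-Hochberg method, gave p = 0.15625 for each of those 8, 0.417 for Vegfb and 0.75 for Vegfa, and none passed 0.05. The smallest unadjusted p was 0.03125 with 6 rats, 0.0625 with 5 and 0.125 with 4, and the classes compared were picked by their levels.

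Set out by partners, the islet classes held ligand (Vegfa) at 49.2 to 242 CPM and all 4 receptors at 9.41 CPM at most, apart from Flt1 at 13.2 CPM in the 11 delta cells of young 2. The other ligands reached 48.8 CPM at most in islet classes, for Pdgfc in PP cells. Endothelial cells held both VEGF receptors together with the ligands Vegfc and Pdgfb. Kdr was also held by dendritic cells at 35.6 to 223 CPM and by cluster 97, which carries no class, at 1244 CPM on average. Natural killer cells held Pdgfb at 15.6 to 58.0 CPM and Vegfc at 14.9 to 36.5 CPM. Mesothelial cells held Vegfc at 41.3 to 85.8 CPM and Pdgfa at 47.2 to 75.9 CPM. Fibroblasts held Pdgfra together with Vegfa and Vegfc, and smooth muscle and pericyte cells held Pdgfrb together with Pdgfa. Ductal cells held the ligands Vegfa, Pdgfa and Pdgfc, with each receptor at 4.93 CPM or less. Macrophages held Pdgfc, and each receptor there was at 9.15 CPM or less.

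Within classes, the levels differed between subsets named after leading genes, none of which is among the 10, and these differences are given without a test. Macrophages divided into a subset with Lyve1 and Fcna and a subset with Clec7a and Olr1. Pdgfc was 235, 115, 235, 229 and 189 CPM in the Lyve1 Fcna subset of the first 5 rats and 47.0, 3.84, 3.41, 27.7 and 20.8 CPM in the Clec7a Olr1 subset, higher in 5 of 5 by 3.75 ± 1.39 on the log2(CPM + 1) scale. HFHF-old 2 held 6 cells of the Lyve1 Fcna subset. Vegfb was also higher in the Lyve1 Fcna subset, at 9.40, 19.05, 10.6, 2.70 and 16.5 CPM against 5.93, 11.9, 5.43, 1.81 and 6.51 CPM, a difference of 0.74 ± 0.32 in 5 of 5 rats. Vegfc, Pdgfa and Pdgfb ran the opposite way, higher in the Clec7a Olr1 subset in 5 of 5 rats by 1.83 ± 0.44, 1.54 ± 0.61 and 1.23 ± 0.23, respectively, and Vegfa was higher there in 4 of 5 rats. The Lyve1 Fcna subset made up 60.7%, 43.0%, 50.4% and 63.3% of the macrophages of the young and old rats, and 19.5% and 9.52% of those of HFHF-old 1 and HFHF-old 2. The share of HFHF-old 1 rests on which clusters were named, since 289 of its 309 Lyve1 Fcna cells were in cluster 103, led by Mki67 and Top2a and 99.3% from that rat, and its 1916 cells of cluster 76, which has Lyve1 among its leading genes, were left without a class. With cluster 76 counted in the subset the share of HFHF-old 1 was 63.6%, and that of HFHF-old 2 is 6 of 63 cells, so these shares do not order the groups.

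Fibroblasts divided into subsets led by C7, Spon1 and Inmt, by Gfpt2, Tnfrsf11b and Sema3c, and by Pi16 and Clec3b. Pdgfrb was a gene of the C7 subset, at 94.1, 104, 151, 107, 55.8 and 128 CPM against 0 to 26.4 CPM in the Gfpt2 subset and 4.96 to 15.9 CPM in the Pi16 subset. The C7 subset was higher than the Gfpt2 subset in 6 of 6 rats by 3.89 ± 1.56 and higher than the Pi16 subset in 5 of 5 by 3.59 ± 0.50. Pdgfra was higher in the C7 subset than in the Gfpt2 subset in 6 of 6 rats, by 0.73 ± 0.32. Vegfc was 101 to 212 CPM in the C7 subset and 42.0 to 89.1 CPM in the Pi16 subset. Vegfa ran the other way, at 196, 249, 304, 106, 215 and 247 CPM in the Gfpt2 subset against 133, 175, 93.0, 79.3, 155 and 85.1 CPM in the C7 subset, a difference of 0.86 ± 0.58 in 6 of 6 rats. The mix of subsets varied widely, since the C7 subset made up 11.1%, 32.4%, 52.1%, 41.2%, 25.3% and 20.9% of fibroblasts and the Gfpt2 subset 47.1%, 5.48%, 1.88%, 3.37%, 74.6% and 65.2%.

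Endothelial cells were mostly a capillary-type subset led by Plvap and Gpihbp1, in which Kdr was 1132, 1334, 1251, 876, 1356 and 1118 CPM. A smaller subset led by Vwf and Nrg1 had at least 10 cells in 2 rats, with Kdr at 57.5 CPM in young 1 and 14.7 CPM in HFHF-old 2 and Flt1 at 468 and 704 CPM. This subset made up 19.1% of the endothelial cells of HFHF-old 2, the rat with the lowest Kdr in the class as a whole. Within the Plvap Gpihbp1 subset the lowest Kdr was that of old 2.

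**Figure D4:**
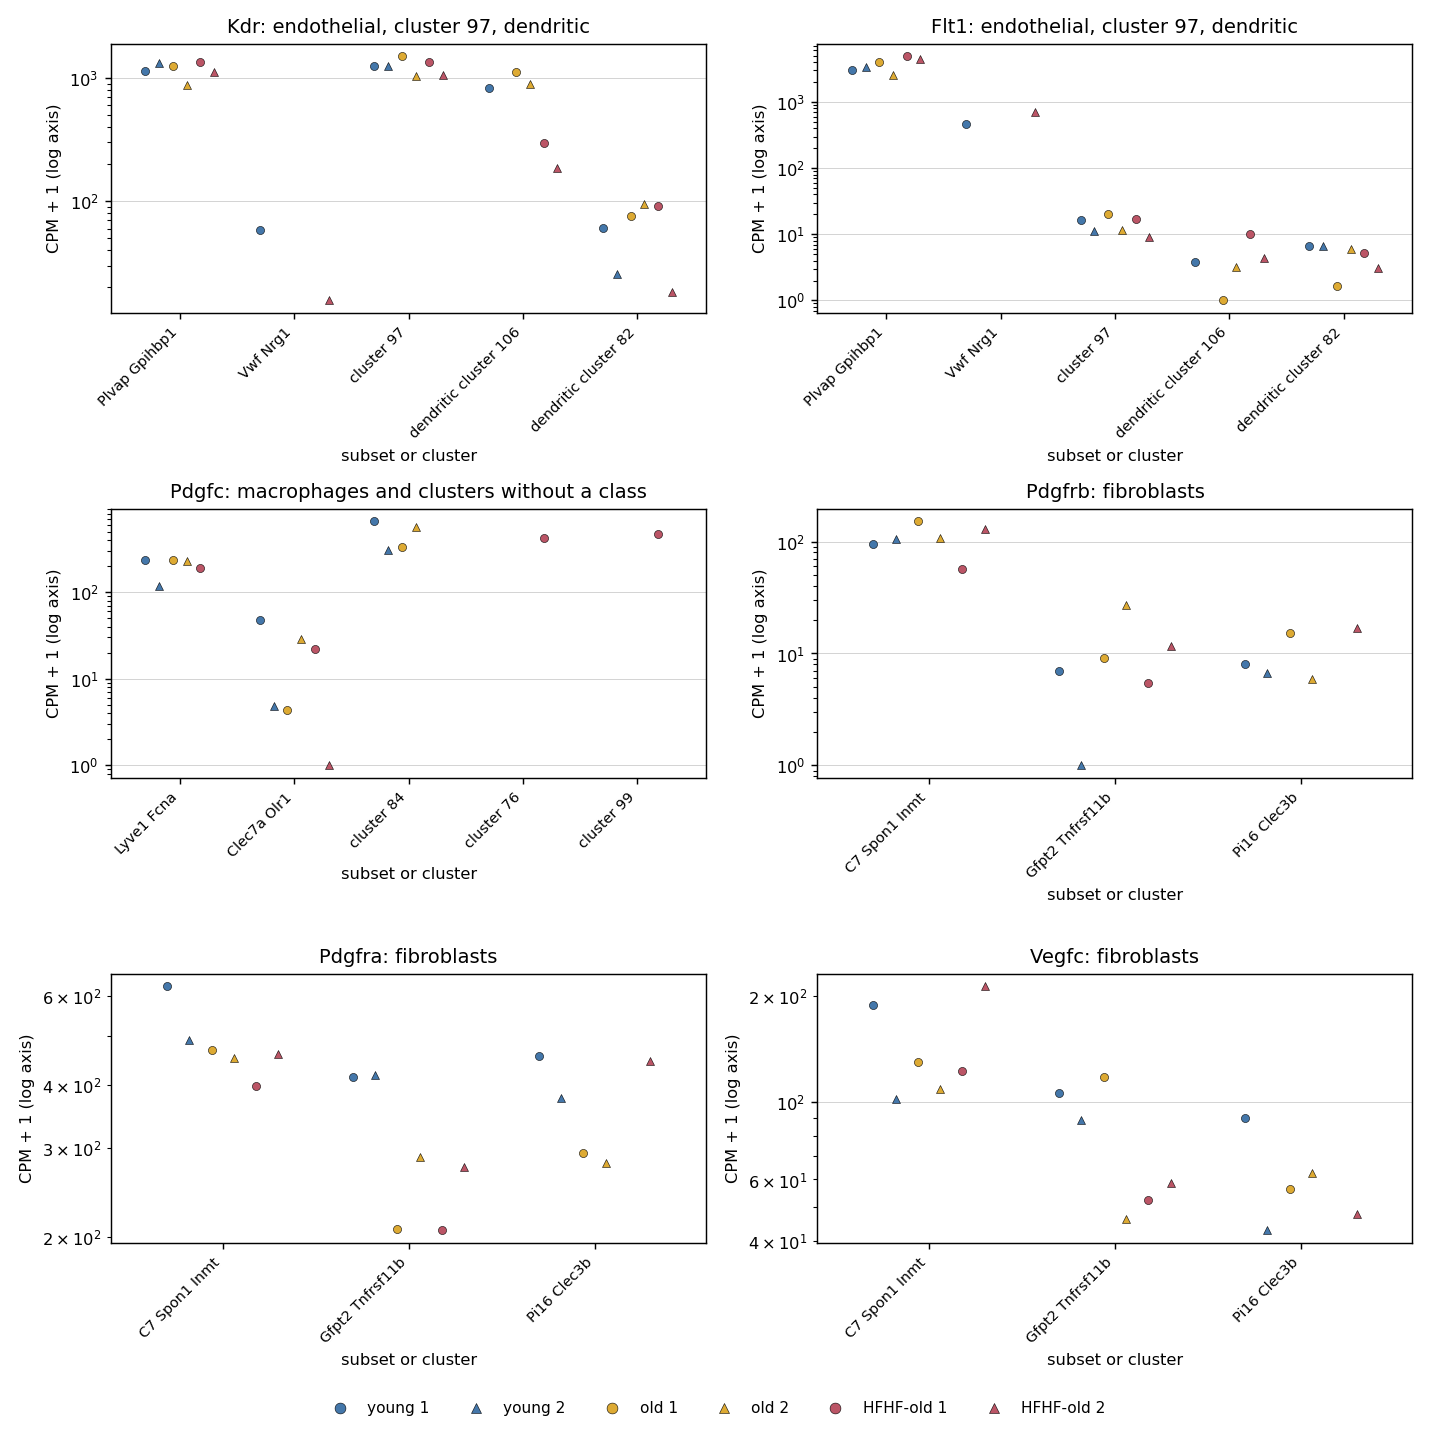
Level of Kdr, Flt1, Pdgfc and stromal genes in every rat (points, CPM + 1 on a log axis) in subsets of the named classes and in clusters without a class. Kdr in cluster 97 lay at 1042 to 1504 CPM, near endothelial cells, while Flt1 there lay at 8.06 to 19.1 CPM, and Pdgfc was higher in the Lyve1 Fcna macrophages than in the Clec7a Olr1 macrophages in 5 of 5 rats.

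Within dendritic cells, Kdr was highest in a small cluster of 215 cells led by genes such as Ccl22 and Serpinb1a, which held 830, 1129, 887, 294 and 184 CPM in young 1, old 1, old 2, HFHF-old 1 and HFHF-old 2 (mean 665 ± 407). The larger cluster of 1251 cells with Clec9a, Xcr1 and Flt3, genes of conventional cross-presenting dendritic cells, held 59.4, 24.6, 74.4, 93.7, 89.8 and 17.5 CPM (mean 59.9 ± 32.5, n = 6). A further holder was cluster 97, with 448 cells in all 6 rats that no marker list named and whose leading genes included Siglech, Bcl11a and Kmo beside Kdr itself. It held Kdr at 1262, 1259, 1504, 1042, 1341 and 1059 CPM, above the endothelial cells of the same rat in 4 of 6 rats, and Flt1 at 15.3, 10.1, 19.1, 10.6, 15.7 and 8.06 CPM. Endothelial cells held Kdr at 783 to 1356 CPM and Flt1 at 2488 to 4920 CPM.

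Detection per cell was compared at equal depth. Each cell was thinned to 1500 UMIs, and cells below that number were left out (319 of 1554 endothelial cells, 224 of 9163 fibroblasts, 441 of 1473 beta cells, 352 of 3101 acinar cells, 344 of 4411 T cells and 32 of 420 smooth muscle and pericyte cells). Kdr was then detected in 52.5% to 81.2% of endothelial cells and 6.52% to 15.3% of dendritic cells, against 0% to 0.350% of T cells, which should lack it. Without thinning the endothelial range was 63.1% to 93.3%, at median depths of 1652 to 5150 UMIs per rat. Flt1 was detected in 85.3% to 94.6% of thinned endothelial cells and 0% to 1.64% of T cells. Pdgfb was detected in 21.6% to 27.1% of endothelial cells, 1.52% to 9.08% of NK cells and 0% to 0.242% of T cells.

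Among stromal and epithelial cells thinned in this way, Pdgfra was detected in 31.6% to 46.1% of fibroblasts and Pdgfrb in 1.96% to 10.2% of fibroblasts and 21.4% to 47.1% of smooth muscle and pericyte cells. Vegfa was detected in 15.02% to 23.4% of fibroblasts, 5.80% to 22.6% of beta cells and 0.996% to 2.24% of acinar cells, the last overlapping the 0% to 1.93% of T cells. Unthinned, Vegfa was found in 36.8% to 92.7% of beta cells, whose median depth ran from 2168 UMIs in old 2 to 70452 in old 1. Without thinning, detection was 81.7% to 98.5% for Flt1 and 25.9% to 54.9% for Pdgfb in endothelial cells, 62.4% to 94.5% for Pdgfra and 8.44% to 34.6% for Pdgfrb in fibroblasts, and 30.1% to 78.0% for Vegfa in fibroblasts. Kdr and Flt1 were detected together in 52.5% to 78.3% of thinned endothelial cells, where independent detection would give 48.1% to 74.5%, and the joint share was above the product in 5 of 6 rats. Vegfa and Pdgfra were detected together in 5.09% to 10.0% of thinned fibroblasts, above the product of their shares in 1 of 6 rats.

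Groups were compared by edgeR's quasi-likelihood test on UMI sums per rat in 8 classes. These were beta, alpha, acinar, ductal, endothelial, fibroblast, macrophage, and smooth muscle and pericyte cells. The comparisons were HFHF-old against old (diet at matched age) and old against young (age under the normal diet), which share the old rats. Smooth muscle and pericyte cells had only the second. The other classes, PP, NK, T, B and dendritic cells among them, were not tested. A gene was called at an adjusted p under 0.05 and a fold over 1.5. In the tested classes, neither comparison gave a call for any of the 10 genes. For HFHF-old against old, 0 of 51 pairs of gene and class were called in 7 classes, against 0.0326% of all 76580 pairs tested, and 4 of the 51 had an unadjusted p under 0.05, against 9.15% of all pairs. For old against young, 0 of 54 pairs were called in 8 classes, against 0.0349% of 83170, and 6 had an unadjusted p under 0.05, against 5.02%. DESeq2 also called 0 and 0. With 2 rats a group, and 1 HFHF-old rat in beta, alpha and ductal cells, the test has little power. On simulated counts of endothelial cells for HFHF-old against old it recovered 2% of 2-fold, 32% of 4-fold and 62% of 8-fold changes. For HFHF-old against old, recovery of 4-fold changes ran from 24% in acinar cells to 62% in macrophages among classes with 2 rats a group. It was lower in alpha and ductal cells. For old against young it was 8% in smooth muscle and pericyte cells, 18% in ductal cells and 32% to 66% in the others. A difference of 4-fold could therefore well go uncalled.

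In the tested class with the highest level of each gene, no estimate (log2 fold change ± SE) was called. Kdr in endothelial cells differed by 0.04 ± 0.45 for HFHF-old against old (edgeR adjusted p = 0.996) and by -0.17 ± 0.45 for old against young. Flt1 differed by 0.35 ± 0.49 and 0.07 ± 0.49, and Pdgfb by -0.26 ± 0.37 and 0.06 ± 0.36, in the same cells and order. In fibroblasts, Vegfa differed by 0.47 ± 0.26 (adjusted p = 0.785) and -0.31 ± 0.26, Vegfc by -0.16 ± 0.29 and -0.03 ± 0.30, and Pdgfra by -0.30 ± 0.27 and -0.27 ± 0.27. Fibroblast Vegfa was 200 and 210 CPM in the HFHF-old rats against 178 and 119 CPM in the old rats, so these groups did not overlap, as for 17.9% of all 13057 genes tested in fibroblasts in that direction. The Gfpt2 subset described above held more Vegfa than the C7 subset. It was 74.6% and 65.2% of the HFHF-old fibroblasts and 1.88% and 3.37% of the old. Within it the groups overlapped (215 and 247 against 304 and 106 CPM), with the old values from 22 and 45 cells. The Pi16 subset, with Vegfa at 146 to 246 CPM, was 0.0843% and 13.8% of the HFHF-old fibroblasts and 46.1% and 55.5% of the old. The part of the subset mix in the difference was not tested. Pdgfc in ductal cells differed by -0.65 ± 0.50 and 0.27 ± 0.40, the first resting on 26 cells of HFHF-old 1. In smooth muscle and pericyte cells, old against young gave 0.69 ± 0.65 for Pdgfrb and -0.51 ± 0.50 for Pdgfa. The Pdgfrb value has no settled direction, since it was -0.51 without the 17 cells of old 1 and -0.65 with finer clusters (Leiden resolution 2). Vegfb in macrophages differed by 0.65 ± 0.60 and -1.10 ± 0.55.

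**Figure D5:**
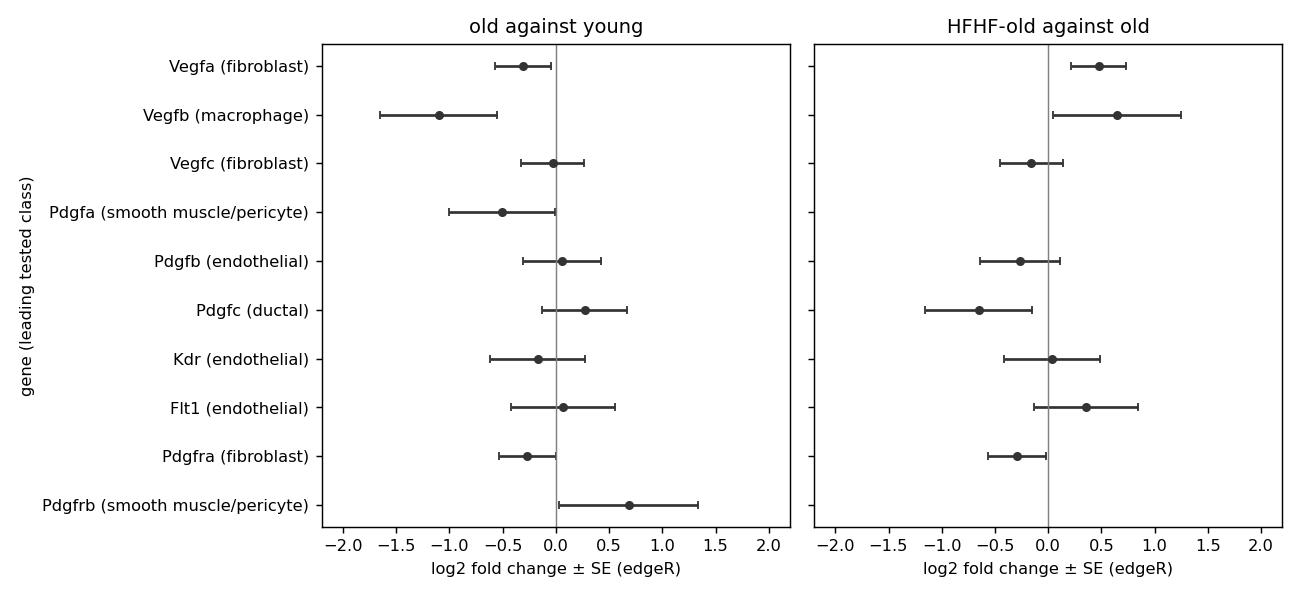
Log2 fold change ± SE (edgeR) of each gene in its leading tested class for HFHF-old against old and old against young. Estimates ran from -0.65 to 0.65 for the first and from -1.10 to 0.69 for the second, and none was called.

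Pdgfrb in fibroblasts had an unadjusted p under 0.05 in both comparisons. It was 76.8 and 43.8 CPM in the old rats, 16.5 and 33.8 CPM in the young and 16.8 and 31.8 CPM in the HFHF-old rats, a log2 fold change of 1.34 ± 0.43 for old against young (edgeR adjusted p = 0.528) and -1.33 ± 0.42 for HFHF-old against old (adjusted p = 0.544). Both comparisons use the same old rats. The C7 subset, in which this receptor was highest, was 52.1% and 41.2% of the fibroblasts of the old rats, 11.1% and 32.4% in the young and 25.3% and 20.9% in the HFHF-old rats, and its part in the difference was not tested. Within the C7 subset, the old rats (151 and 107 CPM) overlapped the HFHF-old rats (55.8 and 128 CPM) and not the young (94.1 and 104 CPM).

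Vegfc in macrophages was 15.7 and 20.6 CPM in the young rats, 8.42 and 5.74 CPM in the old and 15.8 and 9.15 CPM in the HFHF-old rats, the last from 4 UMIs. Its log2 fold change was -1.28 ± 0.32 for old against young (edgeR adjusted p = 0.245) and 0.81 ± 0.34 for HFHF-old against old (adjusted p = 0.396). The second value became 0.30 ± 0.33 with cluster 76 kept among the macrophages of HFHF-old 1 and its unadjusted p was then above 0.05, while the first became -1.30 ± 0.30. The Clec7a Olr1 subset, in which Vegfc was higher, was 80.5% and 90.5% of the named macrophages of the HFHF-old rats, 49.6% and 36.7% of the old and 39.3% and 57.0% of the young, and its part was not tested. With cluster 76 kept, its share in HFHF-old 1 was 36.4%, so these shares do not order the groups. Pdgfra in macrophages, at 8.06 CPM or less, differed by -1.51 ± 0.62 for old against young (adjusted p = 0.453). Flt1 in acinar cells differed by -2.12 ± 0.80 (adjusted p = 1.00), and of the young UMIs behind it 8 were in young 1 and 101 in young 2, where the endothelial marker list was also highest in acinar cells.

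In beta cells, 4 values had an unadjusted p under 0.05. Vegfb was 14.8 CPM in HFHF-old 1 against 4.18 and 0.527 CPM in the old rats, a log2 fold change of 2.12 ± 0.88 (edgeR adjusted p = 0.714) from 1 HFHF-old rat. Without old 1 it became 3.87 and passed the threshold, but this sets HFHF-old 1 against old 2 alone, with the spread taken from the young rats, and compares those libraries and not the groups. Flt1 had 1 UMI in HFHF-old 1 against 53 in the old rats, of which 52 were in old 2, a ratio of 0.0585 with an exact 95% interval of 0.00145 to 0.340 for counting error. Its fitted fold passed the threshold without old 1, in the same fit of 1 library against 1. For old against young, Vegfc differed by 0.87 ± 0.37 and Pdgfra by -1.48 ± 0.63 (adjusted p = 0.999 for each), and Vegfb was called without old 1, at a log2 fold change of -3.36 for old 2 alone against the 2 young rats. Old 2 supplied 940 of the beta cells, at a median of 2168 UMIs, against 63 in old 1 at 70452.

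By the plain order of values, the groups did not overlap in 8 of 32 pairs of gene and class with 2 rats a group for HFHF-old against old (2 higher, 6 lower), against 39.5% of all pairs tested, with 17.7% higher and 21.9% lower. For old against young they did not overlap in 22 of 54 pairs (3 higher, 19 lower), against 36.9% of all pairs, with 14.1% higher and 22.8% lower. The 3 higher pairs were Vegfa in acinar cells, Vegfc in beta cells and Pdgfrb in fibroblasts. Of the 19 lower pairs, 7 were in macrophages, where 10 members were tested. Of all 12902 genes tested in macrophages, 27.7% were lower without overlap and 20.3% higher. Whether the members differ from that share was not tested. The shares differed by class, with 1.74% of genes higher and 43.9% lower in acinar cells and 25.6% higher and 7.35% lower in beta cells.

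Genes around the pathway were counted in the same fits, in which 9.15% of all pairs of gene and class had an unadjusted p under 0.05 for HFHF-old against old and 5.02% for old against young. Other VEGF ligands and receptors (6 genes, Flt4 and Nrp1 among them) gave 22 tests over classes for HFHF-old against old and 25 for old against young, with 0 called in each and 1 and 2 at an unadjusted p under 0.05. Other PDGF ligands and binding proteins (Pdgfd, Pdgfrl and Sparc) gave 18 and 19 tests with 0 called and 2 and 6 at p under 0.05. Genes of oxygen sensing upstream of Vegfa, such as Hif1a and Vhl, gave 47 and 51 tests with 0 called and 5 and 2 at p under 0.05. Receptor signalling genes, such as Plcg1 and Shc1, gave 96 and 107 tests with 0 called and 8 and 4 at p under 0.05. Endothelial genes induced by VEGF, such as Dll4, Esm1 and Apln, gave 40 and 44 tests with 0 called and 5 and 9 at p under 0.05.

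Hypoxia-induced genes gave 73 and 79 tests, with 11 and 9 at p under 0.05 and 1 called. This was Ddit4, a stress-induced inhibitor of mTORC1, which was 4.04 ± 0.55 higher in the ductal cells of HFHF-old 1 than in those of the old rats (edgeR adjusted p = 0.0478). That value compares 26 cells of 1 HFHF-old rat with 2 old rats, and its p takes the spread from the young and old rats, so it says nothing of the spread among HFHF-old rats. The same fit called 16 of the 9196 genes tested (0.174%), all higher in HFHF-old 1, and these were 16 of the 25 calls over all classes for HFHF-old against old. Of the 9 hypoxia-induced genes tested in ductal cells, 7 had p under 0.05, against 15.8% of the 9196 genes, with a median log2 fold change of 1.49 against -0.10 over all of them. Vegfa in ductal cells differed by 0.16 ± 0.48. The ductal median was the highest of the 7 classes tested. The lowest was -0.88 in alpha cells, also from HFHF-old 1 alone, where 2 of 11 genes had p under 0.05, and the other 5 classes had medians of -0.13 to 0.17.

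Across the 17 classes, the genes whose mean levels were most like each member were found among 13237 genes, as a description over points that share the same libraries. Flt1 was most like Cyyr1 (Pearson r = 0.97), Arhgef15 (0.97) and Cytl1 (0.96). Kdr was most like Zfp366 (0.91), Plvap (0.90) and Gpr4 (0.89). Pdgfb was nearest to Cd93 (0.86), Hba-a2 (0.81) and Pde2a (0.79). Pdgfra was most like Bmper (0.98), Has1 (0.98) and Dcn (0.97), and Pdgfrb like Rem1 (0.98), Gjc1 (0.96) and LOC102553018 (0.96). Pdgfc was nearest to Cyp4f6 (0.90), Fbxw9 (0.90) and Fgfr1 (0.89), and Pdgfa to Chmp4c (0.90), Pacsin3 (0.89) and Arvcf (0.88). Vegfa was nearest to Ank2, Plekha6 and Robo1 (0.91, 0.91 and 0.90), Vegfb to Spire1, Cd63 and Dynll2 (0.85, 0.84 and 0.82) and Vegfc to Cntln, Mex3b and LOC691254 (0.81, 0.81 and 0.80). Between members, the closest pair was Kdr and Flt1 (r = 0.80) and the least alike Vegfa and Pdgfb (r = -0.37).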

How the data were processed

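Pancreatic cell preparations of 6 rats, 2 per group, had been sequenced with a droplet 3′ protocol. The authors deposited UMI counts per gene and barcode for each library, not normalized. The matrix headers name Cell Ranger 5.0.0, and the submitters' processing notes give the build as Rnor_6.0. Groups and replicate numbers come from the sample labels.

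Barcodes with under 200 genes or over 25% mitochondrial UMIs were left out, as was the top 1% by number of genes over all libraries pooled. These were 2823 in all, and HFHF-old 1 kept 11990 of its 13250 barcodes. The remaining 75201 cells were scaled to 10000 UMIs and clustered with 2000 variable genes, 10 principal components (20 at the second level), 15 neighbours and Leiden resolution 1, with the members and pathway genes held out except Plvap, an endothelial marker that was therefore not counted in the pathway lists. Clusters were named from marker lists. The naming thresholds (at least 3 markers and 50% of a list raised, median UMIs at least 33.3% of the library's, more than 1 library, doublets at most 50%) were set after the clusters had been seen. The members and lists were chosen with earlier results of these data known. Doublets were simulated in each library, 8401 cells (11.2%) were marked at a rate rising with the number of barcodes, and they stayed in named clusters except in 1 alternative. Subsets were formed from clusters by the genes in their names.

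UMI counts were summed per rat and class (at least 10 cells, and for CPM scaled to 1000000) and tested with edgeR 4.0.16 (R 4.3.3), the quasi-likelihood test with TMM normalization, filterByExpr and all groups in 1 fit, with Benjamini-Hochberg adjustment over the genes of a class and a fold over 1.5 for a call. SE is the fold change divided by the root of F. Where a group held 1 rat, that rat was taken to vary like the others. DESeq2 1.42.0 was an alternative. The test was tested on simulated data with 200 changed genes per class. Leading and next classes were compared on log2(CPM + 1) by a two-sided exact permutation test that flips signs over rats (scipy 1.17.1). P-values measure the spread between these rats. Exact intervals cover counting error only. Every member is named, with test values in its leading tested class and wherever p was under 0.05, and pathway genes are named only where called or as examples of a list. The genes most like a member are the 3 with the highest Pearson r over mean log2(CPM + 1) in 17 classes, among genes of at least 10 CPM in 1 class. Promoters and their coordinates are from RefSeq build GRCr8, which is not the build of the counts.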

Additional observations from a re-analysis of the deposited data

Results flagged for a closer look

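For old against young, 4 pairs of classes had every old rat above every young rat in one class and below in the other, and the differences between classes were not tested. Old and young rats do not overlap in 36.9% of all 83170 pairs of gene and class (14.1% higher, 22.8% lower). The classes differ in this for genes in general, with 1.74% higher and 43.9% lower in acinar cells, 25.6% higher and 7.35% lower in beta cells, 20.3% higher and 27.7% lower in macrophages and 16.9% higher and 18.3% lower in fibroblasts. The fold changes that follow use TMM-scaled library sizes, whereas the overlap is judged in CPM. Pdgfrb differed by a log2 fold change of 1.34 in fibroblasts and -0.88 in macrophages. Vegfa differed by 0.73 in acinar cells and -0.31 in fibroblasts. In CPM the acinar values were close, at 12.4 and 12.5 in the old against 10.7 and 11.1 in the young rats, and in fibroblasts old 1 at 178.0 lay next to young 1 at 178.6. Vegfc differed by 0.87 in beta cells, -1.46 in acinar cells and -1.28 in macrophages, which is the direction most non-overlapping genes took in each of these classes. None of these values passed the test of its own class.

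In 5 places a member stood high in a cluster that carries no class, outside the comparisons above. Kdr was 1244 CPM on average in cluster 97 (448 cells, 6 rats), led by Hs3st3a1, Bcl11a and Siglech. Flt1 was 2018 CPM in cluster 21, 274 cells of old 2 led by Prl7b1, Prl2a1 and Pappa2, known as placental and decidual genes in a rat labelled male, so the source of these cells is not accounted for. Pdgfc was 466 CPM in cluster 84 (1228 cells of low depth, with Stab1 and Kcnt2), 417 CPM in cluster 76 (1926 cells, 99.5% from HFHF-old 1, with Gpnmb, Cd163 and Lyve1) and 472 CPM in cluster 99 (376 cells, 99.2% from HFHF-old 1). For comparison, the Lyve1 Fcna macrophages of HFHF-old 1 held Pdgfc at 189 CPM. Clusters 76 and 99 are not in the macrophage class, so the macrophage values of HFHF-old 1 leave them out.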

How the results depend on the processing

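Of the 11 settings that kept all rats, 8 called no member. Without the filter on low counts, 3 pairs were called for HFHF-old against old (Vegfb in beta cells, Pdgfrb in fibroblasts and Pdgfc in macrophages) and 2 for old against young (Pdgfrb in fibroblasts and Vegfc in macrophages), while calls over all genes went from 25 and 29 to 2723 and 1659. The Pdgfc call leaves out cluster 76: with clusters of mixed leading genes kept, macrophages of HFHF-old 1 went from 70.6 to 269 CPM, against 107 and 137 CPM in the old rats and 6.86 CPM in HFHF-old 2, and the log2 fold change went from -1.53 ± 0.77 to 0.14 ± 1.08. With free RNA subtracted, 1 was called for HFHF-old against old (Pdgfc in acinar cells). This subtraction used 32.0% for HFHF-old 2, an estimate drawn from a library made mostly of lymphocytes. With classes by per-cell marker sums, 1 was called for old against young (Vegfc in macrophages). DESeq2 called 396 and 328 of all pairs and no member. Leaving out 1 rat gave 0 to 2 member calls for HFHF-old against old and 0 to 1 for old against young, all of them without old 1, in beta cells, where old 2 alone stands for the old group. Directions turned mostly for values near 0. Kdr in endothelial cells, HFHF-old against old, became -0.00046 without the filter, -0.11 without doublets, -0.20 with per-cell classes and -0.14 at resolution 2. Pdgfrb in smooth muscle and pericyte cells, old against young, became -0.65 at resolution 2 and -0.51 with at least 30 cells, which left out the 17 cells of old 1. With free RNA subtracted, HFHF-old against old gave 0.031 for Pdgfra and 0.065 for Vegfc in fibroblasts, and with per-cell classes -1.34 for Vegfb in macrophages. The fibroblast lead over mesothelial cells for Vegfc became -0.074 with per-cell classes, and the lead of fibroblasts over ductal cells for Vegfa -0.031 with at least 30 cells and -0.056 to 0.122 leaving out 1 rat. Leaving out 1 rat, old against young ranged from -0.077 to 0.206 for Pdgfb, -0.24 to 0.32 for Flt1 and -0.391 to 0.064 for Kdr in endothelial cells, from -0.35 to 0.48 for Vegfc in fibroblasts, from -0.51 to 1.24 for Pdgfrb in smooth muscle and pericyte cells and from -0.056 to 0.531 for Pdgfc in ductal cells. HFHF-old against old ranged from -0.44 to 0.37 for Kdr and from -0.78 to 0.10 for Pdgfb in endothelial cells. The cause was not tested for any of these. With a replicate block, 0 and 0 members were called, calls over all genes were 68 and 68, and Vegfc in fibroblasts, old against young, became 0.0011. Same-numbered rats deviated together at r = -0.29 to 0.23 over genes, which with 2 rats a group can neither show nor exclude pairing. Of the other values, 125 on leading classes and 435 on named pairs kept their direction and side of the threshold.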

Other observations

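Other clusters without a class held ligands. Vegfa was 112 to 443 CPM in the 5 rats with at least 10 cells of cluster 28, 202 cells of low depth led by genes such as Rbpjl and Nr5a2, known as acinar transcription factors, and Myo5c, against 10.7 to 14.2 CPM in the acinar class. Vegfc was 155, 232 and 254 CPM in young 1, old 2 and HFHF-old 2 in cluster 54, 407 cells led by Pcsk5, Tmeff2 and Svep1. Cluster 21 of old 2, whose leading genes are placental and decidual, held Pdgfra at 317 CPM beside its Flt1. In B cells, Kdr was 0 to 15.7 CPM in 5 rats and 97.3 CPM in old 2.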
